A study of Homo sapiens with 6 samples.

Results

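The 7SK RNA and the proteins that bind or regulate it were followed upon PQBP1 knockdown in HEY cells, a human ovarian cancer cell line. They are 8 of the 32679 genes in the deposited table: the RNA gene RN7SK, the inhibitors HEXIM1 and HEXIM2, the 7SK-binding proteins LARP7 and MEPCE, and the kinase CDK9 with its cyclins CCNT1 and CCNT2. They were taken by gene symbol, each symbol has 1 row, and RN7SK was chosen by its low values in the shPQBP1 samples of these same data, so its difference is given as a description with no test. The series compares gene expression in cells depleted of PQBP1, a splicing factor, with control cells, by paired-end short-read RNA-seq of poly(A)-selected RNA. The shNC group held 3 samples with a control hairpin, and their treatment is labelled none. The shPQBP1 group held 3 samples with a hairpin against PQBP1 and doxycycline, the inducer of the hairpin, at 1 µg/ml. All 6 samples were labelled day 3 and biological replicates, and p-values measure the spread between these samples. As labelled, the groups differ in both the hairpin and the drug, and what each contributes cannot be told apart. The sources used here do not say, beyond that label, whether doxycycline was also given to the shNC cells. According to the methods, the cells were stable lines made with lentivirus and selected with puromycin. Whether they were clones or pools is not given in the sources used here.

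P-TEFb, the pair of the kinase CDK9 with cyclin T1 or cyclin T2, phosphorylates RNA polymerase II and its pausing factors and thereby lets paused polymerase move into the gene body. In the nucleus much of P-TEFb is held inactive on 7SK, a small RNA made by RNA polymerase III. MEPCE caps the 5′ end of 7SK, LARP7 holds its 3′ end, and HEXIM1 or HEXIM2 binds its first hairpin and blocks the kinase until signals set P-TEFb free.

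RN7SK (ENSG00000283293) lies on the plus strand of hg38 at chr6:52995621-52995948, a single-exon gene of 328 bases with a GC content of 58.2%. The first 300 bases are shown because they hold the hairpin to which HEXIM proteins bind and the stretch that the genome's copies share. GATC, which reads GAUC in the RNA and belongs to the known contact of HEXIM with 7SK, is in capitals. The letters are its own reverse complement, so both strands were searched at once. RN7SK holds 3 matches, at bases 12 to 15, 41 to 44 and 63 to 66 from its 5′ end. At least 1 match stood in 50.9% and at least 3 in 3.66% of 566915 windows of 300 bases tiled along chromosome 6, and a match is not by itself a binding site. The second sequence is the part of RN7SKP203, the copy in the table that shares the most stretches of 50 bases with RN7SK, that aligned to RN7SK bases 1 to 240. It lies on the minus strand at chr2:76445170-76445409, and its capitals mark the bases that differ from RN7SK: C32T, T176A, T192C and A225G, with the RN7SK base first and positions counted from the 5′ end of RN7SK.
RN7SK: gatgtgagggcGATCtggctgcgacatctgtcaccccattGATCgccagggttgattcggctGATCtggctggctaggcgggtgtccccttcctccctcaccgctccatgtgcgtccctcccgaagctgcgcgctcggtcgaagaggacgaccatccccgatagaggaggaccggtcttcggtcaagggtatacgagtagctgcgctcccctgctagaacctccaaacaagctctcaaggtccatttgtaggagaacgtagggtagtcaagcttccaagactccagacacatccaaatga
RN7SKP203: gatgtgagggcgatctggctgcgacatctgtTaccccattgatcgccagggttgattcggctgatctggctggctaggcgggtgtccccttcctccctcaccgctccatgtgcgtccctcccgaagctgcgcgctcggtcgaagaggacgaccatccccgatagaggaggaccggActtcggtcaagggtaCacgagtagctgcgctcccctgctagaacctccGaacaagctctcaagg

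The level of 7SK read from these libraries was lower upon PQBP1 knockdown in every sample. RN7SK was at 9.07, 5.79 and 7.35 FPKM (fragments per kilobase, relative to all mapped fragments of a library) in shNC samples 1 to 3 and at 0.46, 1.37 and 0.59 in shPQBP1 samples 1 to 3. The lowest shNC sample was 4.23 times the highest shPQBP1 sample, and the groups did not overlap. The group means were 7.40 ± 1.64 and 0.807 ± 0.492 FPKM (SD, n = 3 each), a ratio of 9.18. The difference of mean log2(FPKM + 0.1), called the log2 difference from here on, was -3.16. It was the 3rd lowest among the 11413 genes whose mean reached 1 FPKM, a rank that describes a gene chosen for its low values. Adding 0.1 makes this scale understate differences of weakly detected genes. The samples also varied more around the mean in the shPQBP1 group, with a coefficient of variation of 61.0% against 22.2%. When single samples were left out the difference lay between -3.57 (without shPQBP1 sample 2, the highest of its group) and -2.87 (without shPQBP1 sample 1, the lowest). It was -2.93 once trends on GC content and on the length of the transcript were removed, and -2.23 with 1 in place of 0.1 added to each value.

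**Figure D1:**
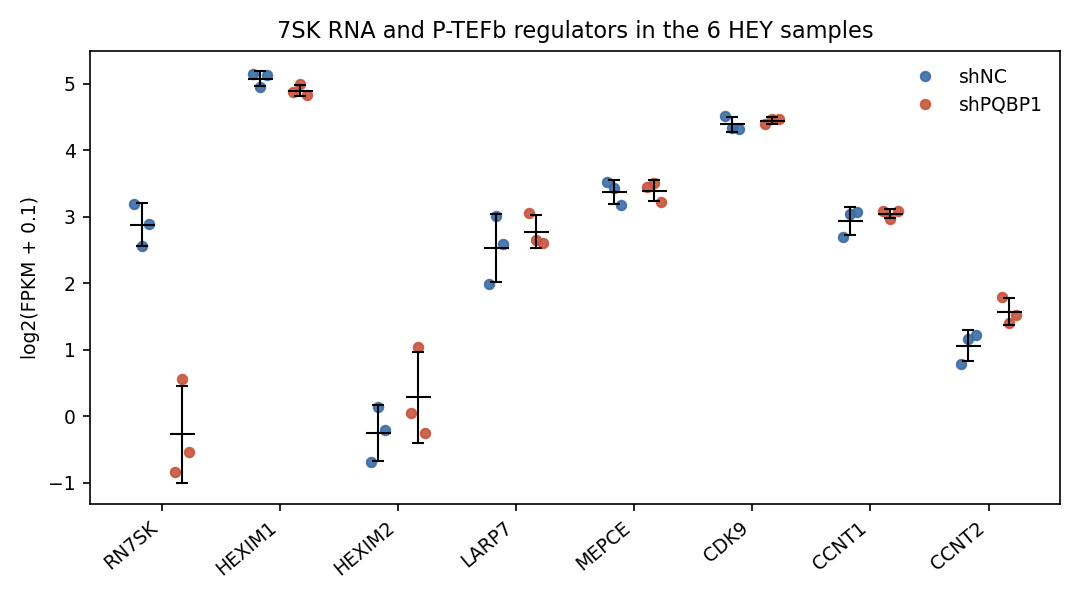
log2(FPKM + 0.1) of the 8 genes in each of the 6 samples, shNC in blue and shPQBP1 in red. Points are samples, long bars are group means and short bars 1 SD (n = 3 each). RN7SK is the gene with the wide gap between the groups, CCNT2 has a narrow gap, and in the other 6 genes the groups overlap.

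7SK has no encoded poly(A) tail, so a poly(A)-selected library holds only the 7SK RNA that passed the selection, and its FPKM is not its amount in the cell. Over the 6 samples its mean level was 4.11 FPKM, above 40.2% of the tested genes. In bulk RNA, fewer cells with the RNA and less RNA per cell cannot be told apart.

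By stretches of 50 bases, much of RN7SK cannot be told from its copies, and longer stretches were not searched. Outside its own locus, 267 places in hg38 aligned to RN7SK (blastn, e-value up to 1e-10), 8 of them at 95% identity or more over 200 bases or more. Of the 279 stretches of 50 bases in RN7SK, 215 occurred word for word elsewhere in the genome. The other 64 (22.9%) all lay between bases 215 and 328, the 3′ part of the RNA. How the authors' tools placed reads that fit several copies is not given in the sources used here.

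The 41 copies of 7SK in the table did not share the difference of RN7SK as a group. Summed over the copies, the FPKM values were 4.96, 5.14 and 5.59 in the shNC samples and 6.91, 5.73 and 6.06 in the shPQBP1 samples, so that every shPQBP1 sample was above every shNC sample. The means of the sums were 5.23 ± 0.324 and 6.23 ± 0.609 (SD, n = 3 each). Without RN7SKP11, the copy at the highest level, which was left out after its values were seen, the sums were 3.24, 3.81 and 4.13 against 3.68, 4.07 and 3.33, with means of 3.73 ± 0.451 and 3.69 ± 0.37, and the groups overlapped. No test was run on either sum. Of the 41 copies, 6 were at 0 in all samples and 1 reached a mean of 1 FPKM. This copy, RN7SKP11, was at 1.72, 1.33 and 1.46 FPKM in the shNC samples and at 3.23, 1.66 and 2.73 in the shPQBP1 samples (log2 difference 0.68, limma, adjusted p = 0.183), and it aligned to RN7SK over 123 bases at 75.6% identity and shared none of its stretches of 50 bases.

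The 4 copies closest to RN7SK, which aligned to it at over 95% identity and are picked here by likeness of sequence, were near 0 and uneven. RN7SKP203, printed above, shared 94 of the 279 stretches with RN7SK and was at 0.44, 0.30 and 0.42 FPKM in the shNC samples and at 0, 0.15 and 0 in the shPQBP1 samples, without overlap. RN7SKP80, 96.3% identical over 269 bases, was at 0.45, 0.13 and 0.13 FPKM in the shNC samples and at 0, 0.58 and 0.01 in the shPQBP1 samples. In both of these copies and in RN7SK itself, shPQBP1 sample 2 was the highest of its group. RN7SKP176, 97.9% identical over 239 bases with 40 shared stretches, was at 0.08, 0.10 and 0.09 FPKM in the shNC samples and at 0.25, 0.07 and 0.07 in the shPQBP1 samples, where sample 1 was the highest. RN7SKP255, 98.3% identical over 239 bases with 62 shared stretches, was at 0 in all samples. The next copies by level, RN7SKP16, RN7SKP173, RN7SKP269 and RN7SKP97, had means of 0.757, 0.467, 0.392 and 0.343 FPKM, and of these 4 only RN7SKP173 had groups without overlap, higher in the shPQBP1 samples (0.287 ± 0.158 against 0.647 ± 0.161 FPKM, SD, n = 3 each).

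Other small structural RNAs were compared on the same scale. Of the 46 genes listed, 37 were in the table, 31 of these had a mean FPKM under 1, and 23 were at 0 in at least 1 sample. Of the 6 tested, 0 passed at an adjusted p under 0.05 and 1 at an unadjusted p under 0.05 (limma). Over all tested genes 2.91% and 23.6% passed these thresholds. The median log2 difference of the 6 was -0.34 against 0.02 over all tested genes. Without shNC sample 1 the median was -0.14 and none of the 6 passed at an unadjusted p under 0.05, and after the GC and length correction the median was -0.095. VTRNA1-2, a vault RNA and like 7SK a product of RNA polymerase III, was at 3.55, 1.85 and 2.47 FPKM in the shNC samples and at 0.86, 0.80 and 1.83 in the shPQBP1 samples (log2 difference -1.15, limma, adjusted p = 0.138). Its groups almost touched, at 1.85 in shNC sample 2 and 1.83 in shPQBP1 sample 3.

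The RNA of the signal recognition particle, also made by RNA polymerase III, overlapped between the groups over all samples. RN7SL2 was at 10.85, 3.65 and 9.97 FPKM in the shNC samples and at 5.17, 5.48 and 5.01 in the shPQBP1 samples (log2 difference -0.49, limma, adjusted p = 0.475). Without shNC sample 2, RN7SL2 was lower in the knockdown (log2 difference -0.98, limma, adjusted p = 0.0312), and with any other sample left out its adjusted p was between 0.551 and 0.782. RN7SL1 was at 8.85, 4.06 and 9.18 FPKM against 4.83, 6.13 and 6.70 (log2 difference -0.24, limma, adjusted p = 0.661). In both, shNC sample 2 lay below the whole shPQBP1 group. SNORA73B, RNU6-8 and BCYRN1, a small nucleolar RNA, a U6 gene and a brain cytoplasmic RNA gene, had mean levels of 4.32, 1.48 and 1.34 FPKM, and in each of them the groups overlapped.

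**Figure D2:**
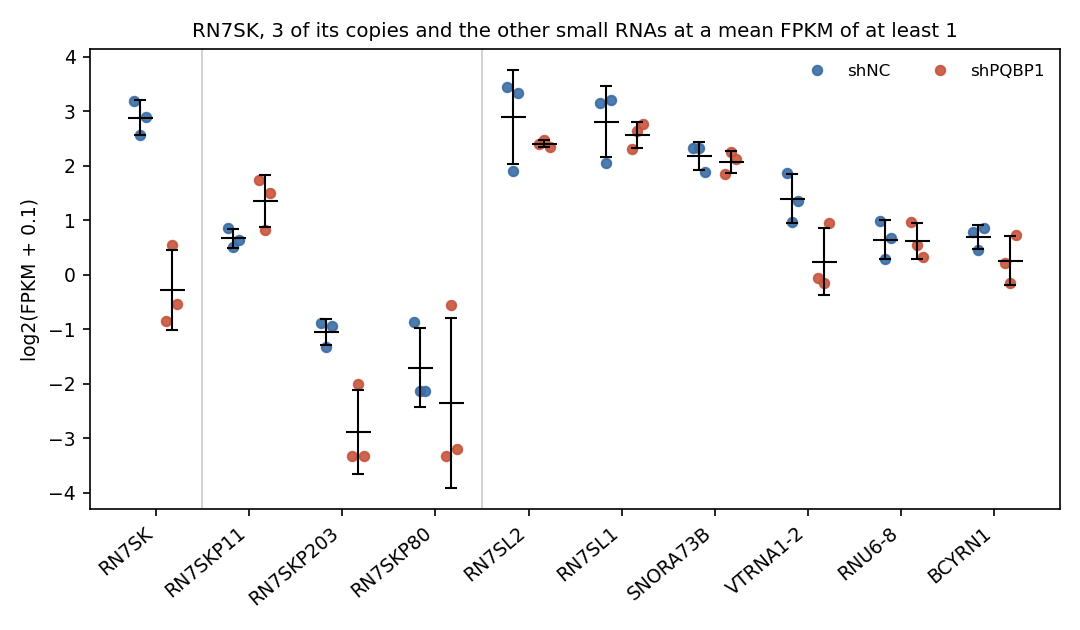
log2(FPKM + 0.1) in each of the 6 samples for RN7SK (left), 3 of its copies (middle) and the 6 other small RNAs that reached a mean of 1 FPKM (right). Points are samples, long bars group means and short bars 1 SD (n = 3 each). The gap between the groups is wide in RN7SK and narrower in RN7SKP203, which is near 0 in all samples (at most 0.44 FPKM). The groups overlap in the small RNAs on the right except VTRNA1-2.

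Genes with transcripts of about the length of RN7SK were read beside it. Of 235 tested genes whose GENCODE transcript is 250 to 450 bases long, 2 were higher and 2 lower at an adjusted p under 0.05 (limma), where 2.91% of all tested genes passed. None had a log2 difference below that of RN7SK, the lowest of the others being -2.80. Since RN7SK was chosen for its low shPQBP1 values, this order was largely set by the choice and is a description. The annotation used here holds a second entry at the place of RN7SK, named 7SK, on the same strand (52995620 to 52995950). That entry has no row in the deposited table. The genes of the table next to RN7SK on chromosome 6 lie on the opposite strand. GSTA4, a glutathione transferase gene whose start is 317 bases away, was at 0.20, 0.40 and 0.57 FPKM in the shNC samples and at 0.39, 0.60 and 0.56 in the shPQBP1 samples. CILK1, a kinase gene 5331 bases away, was at 1.92, 2.98 and 2.70 FPKM against 2.88, 2.55 and 2.75. In neither neighbour did the groups separate.

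Among the inhibitors, HEXIM1 was the abundant form. HEXIM1 (ENSG00000186834, chromosome 17 of hg38 from 45148475 to 45152099) was at 35.32, 30.74 and 35.0 FPKM in the shNC samples and at 29.26, 31.79 and 28.26 in the shPQBP1 samples, and the groups overlapped at shNC sample 2 and shPQBP1 sample 2. Its log2 difference was -0.18 (95% interval -0.39 to 0.04, standard error 0.09; limma, adjusted p = 0.277; exact permutation test, two-sided, p = 0.2). The smallest p that this permutation test allows for 3 samples against 3 is 0.1, so it cannot pass a threshold of 0.05 for any gene here.

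HEXIM2 was close to the limit of the tested range. HEXIM2 (ENSG00000168517, chromosome 17 from 45160700 to 45170040, downstream of HEXIM1 on the same strand) was at 0.52, 1.0 and 0.77 FPKM in the shNC samples and at 0.94, 1.97 and 0.74 in the shPQBP1 samples. Its mean of 0.990 FPKM was just under the minimum of 1, so it was not tested with the other genes, and shPQBP1 sample 2 stood above the rest. The log2 difference was 0.54 (exact permutation test, two-sided, p = 0.5), and with every gene above 0 included the adjusted p from limma was 0.623.

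The 7SK-binding proteins did not separate the groups. LARP7 (ENSG00000174720, chromosome 4 from 112637077 to 112657696) was at 3.88, 7.96 and 5.92 FPKM in the shNC samples and at 8.22, 6.19 and 6.02 in the shPQBP1 samples, a log2 difference of 0.24 (95% interval -0.41 to 0.90, standard error 0.27; limma, adjusted p = 0.593; exact permutation test, p = 0.4). Its control samples spread widely, with a coefficient of variation of 34.5%, and without shNC sample 1, the lowest, its log2 difference was -0.03. LARP7 was the least precise of the 6 tested proteins, and differences of up to 0.90 on the log2 scale lie inside its interval.

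MEPCE, the capping enzyme, overlapped between the groups. MEPCE (ENSG00000146834, chromosome 7 from 100428322 to 100434126) was at 11.37, 10.67 and 8.91 FPKM in the shNC samples and at 10.82, 11.32 and 9.20 in the shPQBP1 samples. Its log2 difference was 0.02 (95% interval -0.29 to 0.33, standard error 0.13; limma, adjusted p = 0.934; exact permutation test, p = 0.8). The shPQBP1 values lay inside the range of the shNC values.

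CDK9, the kinase subunit, had the smallest standard error of the 6 tested proteins. CDK9 (ENSG00000136807, chromosome 9 from 127785679 to 127790792) was at 22.82, 20.12 and 19.81 FPKM in the shNC samples and at 20.90, 22.10 and 22.17 in the shPQBP1 samples. Its log2 difference was 0.06 (95% interval -0.15 to 0.26, standard error 0.08; limma, adjusted p = 0.689; exact permutation test, p = 0.4). After removal of the trend on GC content and length it was 0.20 (limma, adjusted p = 0.0672).

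The cyclins gave unlike values. CCNT1, cyclin T1 (ENSG00000129315, chromosome 12 from 48688458 to 48716998), was at 6.36, 8.14 and 8.33 FPKM in the shNC samples and at 8.40, 7.71 and 8.41 in the shPQBP1 samples, a log2 difference of 0.11 (95% interval -0.19 to 0.41, standard error 0.12; limma, adjusted p = 0.594; exact permutation test, p = 0.5). The CCNT1 values lay close together apart from shNC sample 1, and the sign of its difference turned without that sample (-0.01) and after the GC and length correction (-0.10).

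CCNT2, cyclin T2 (ENSG00000082258, chromosome 2 from 134918235 to 134959342), was the 1 protein gene of the complex whose groups did not overlap. It was at 1.63, 2.14 and 2.24 FPKM in the shNC samples and at 3.37, 2.55 and 2.78 in the shPQBP1 samples. The means were 2.0 ± 0.327 and 2.90 ± 0.423 FPKM (SD, n = 3 each). The CCNT2 log2 difference was 0.52 (95% interval 0.11 to 0.92, standard error 0.17; limma, unadjusted p = 0.0206 and adjusted p = 0.143; exact permutation test, p = 0.1). CCNT2 did not pass the adjusted threshold under any of the 14 alternatives, with adjusted p between 0.14 and 0.355. Its transcript has a GC content of 37.0%, and across 11385 tested genes log2 difference and GC content had a Spearman's rho of -0.459, a description across genes that are not independent replicates. After removal of the trend on GC content and length the log2 difference of CCNT2 was 0.22 (limma, adjusted p = 0.243).

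Read against all genes, the protein members gave no more calls than the background. At an adjusted p under 0.05, 0 of the 6 tested members were called by limma, where 2.91% of the 11413 tested genes were. At an unadjusted p under 0.05 it was 1 of 6, CCNT2, against 23.6%. No member differed over 2-fold together with an unadjusted p under 0.05, against 1.52%, and 1 of 6 had groups without overlap, against 34.4%. These background shares count both directions. The median log2 difference of the 6 was 0.08, against 0.02 over all tested genes.

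**Figure D3:**
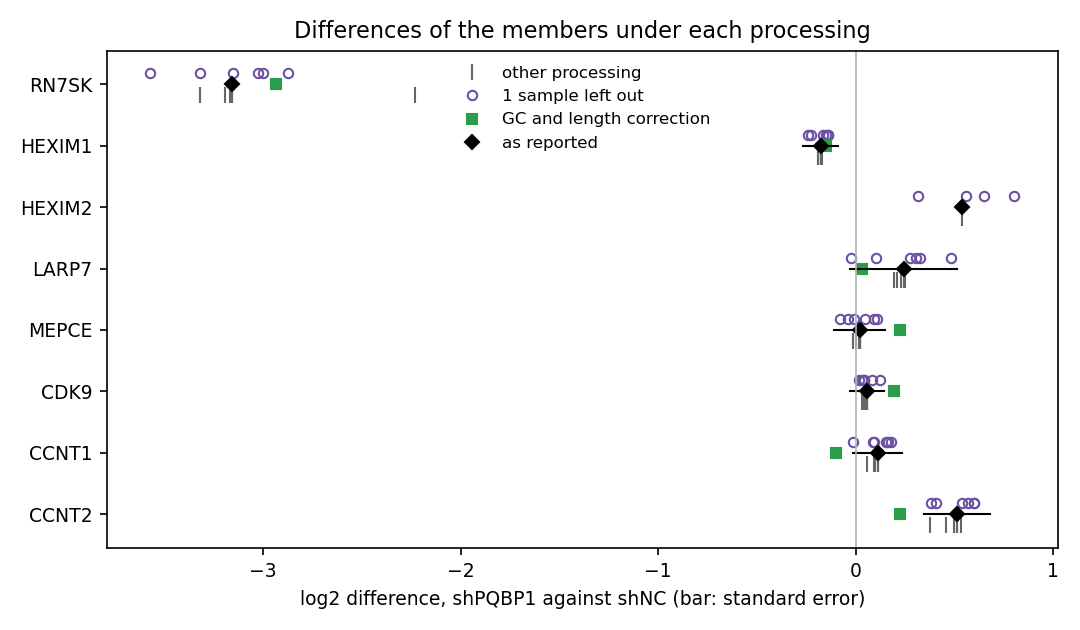
log2 difference of each of the 8 genes, shPQBP1 against shNC. The diamond is the value reported, with its standard error from limma where a test was run, ticks are other scalings, filters, pseudocounts and fits, circles leave out 1 sample each and the square is the value after the GC and length correction. RN7SK stays below -2 in every setting, HEXIM1 stays a little below 0 and CCNT2 a little above, and MEPCE, LARP7 and CCNT1 lie on both sides of 0.

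The proteins of the complex differed in level per length of transcript. Over the 6 samples the mean was 31.7 FPKM for HEXIM1, 21.3 for CDK9, 10.4 for MEPCE, 7.89 for CCNT1, 6.37 for LARP7, 2.45 for CCNT2 and 0.990 for HEXIM2. HEXIM1, CDK9 and MEPCE did not overlap with their neighbours in this order, since the lowest HEXIM1 value, 28.26, was above the highest CDK9 value, 22.82, and the lowest CDK9 value, 19.81, was above the highest MEPCE value, 11.37. CCNT1 and LARP7 overlapped. CCNT2 and HEXIM2 overlapped over all samples, though CCNT2 was the higher in each of the 6.

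Ratios of FPKM within a sample are given as a description of the members against each other. HEXIM1 over CDK9 was 1.55, 1.53 and 1.77 in the shNC samples and 1.40, 1.44 and 1.27 in the shPQBP1 samples, so that every knockdown sample had fewer HEXIM1 fragments per CDK9 fragment at equal length. CCNT1 over CCNT2 was 3.90, 3.80 and 3.72 in the shNC samples and 2.49, 3.02 and 3.03 in the shPQBP1 samples. Both ratios were lower in the shPQBP1 group without overlap, and no test was run on them. Among single genes, 34.4% of all those tested had groups without overlap, and no such share was taken over ratios of other genes. LARP7 over MEPCE (0.584 ± 0.214 against 0.654 ± 0.106, SD, n = 3 each) and the cyclins together over CDK9 (0.465 ± 0.1 against 0.511 ± 0.05) overlapped, as did HEXIM1 over HEXIM2, which ran from 16.1 to 67.9.

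**Figure D4:**
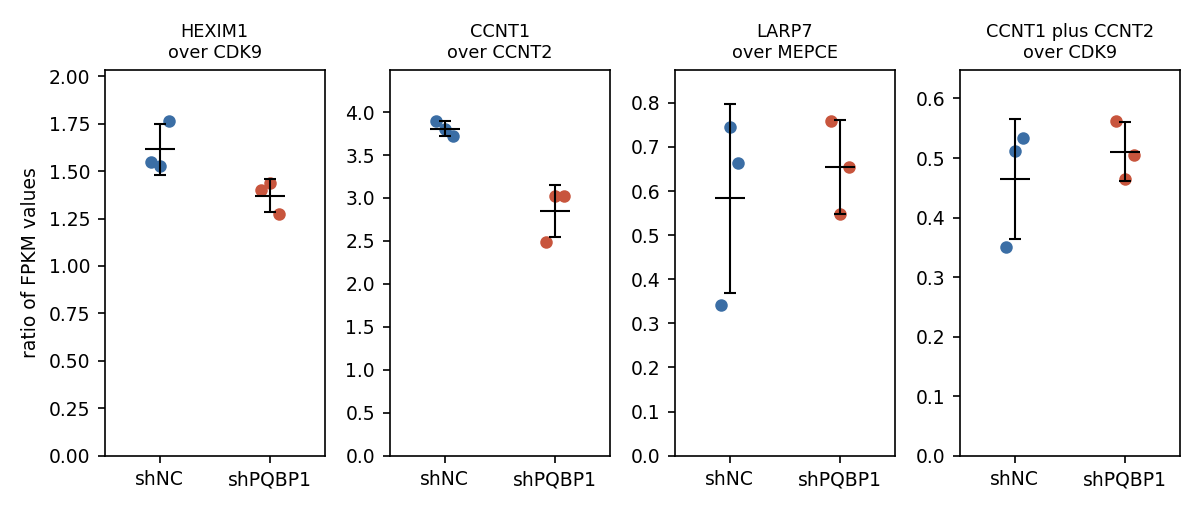
Ratios of FPKM values within each sample for 4 pairs of members, each panel on its own axis from 0. Points are samples, long bars group means and short bars 1 SD (n = 3 each). HEXIM1 over CDK9 and CCNT1 over CCNT2 are lower in all 3 shPQBP1 samples, and the other pairs overlap.

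Genes that overlap a member were at low values. CCNT2-AS1, opposite to the start of CCNT2, was at 0.68, 0.60 and 0.45 FPKM in the shNC samples and at 0.76, 0.83 and 0.87 in the shPQBP1 samples, higher without overlap like CCNT2 itself. ZCWPW1, which overlaps the start of MEPCE from the other strand, was at 0.65, 0.66 and 0.62 FPKM against 0.79, 1.04 and 0.94. Strand use in the library is not given in the sources used here, so reads of CCNT2 and CCNT2-AS1 in their overlap cannot be told apart. HEXIM2-AS1 was at 0 in all samples, and the microRNA genes inside LARP7 and CDK9 were at or below 0.36 FPKM. ENSG00000267288, a long non-coding RNA gene, overlaps the end of HEXIM2 from the other strand. It was at 0.81, 0.64 and 1.01 FPKM in the shNC samples and at 0.7, 0.71 and 0.74 in the shPQBP1 samples. These values are near those of HEXIM2, and reads of the pair in their overlap cannot be told apart either.

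The wider pathway was read from 8 lists with 143 genes, of which 137 were tested. At an adjusted p under 0.05 (limma), 0 were higher and 2 lower, or 1.46%, against 2.91% of all tested genes. At an unadjusted p under 0.05, 10 were higher and 23 lower, or 24.1%, against 23.6%, and the groups did not overlap in 31.4%, against 34.4%. The median log2 difference of the 137 was -0.03.

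Of 16 tested factors that release or recruit P-TEFb, 1 was lower at an adjusted p under 0.05 (limma) and none higher. Over all tested genes 1.18% were lower at this threshold. JMJD6, an arginine demethylase known to act in releasing P-TEFb from 7SK, was at 9.33, 8.81 and 8.42 FPKM in the shNC samples and at 5.38, 5.24 and 5.07 in the shPQBP1 samples. It fell with a log2 difference of -0.75 (limma, adjusted p = 0.0133, standard error 0.08), and the lowest control stood well above the highest knockdown sample. The adjusted p was 0.0157 without shNC sample 1 and 0.0533, 0.0514, 0.0721, 0.0747 and 0.0852 without shNC sample 2, shNC sample 3 and shPQBP1 samples 1, 2 and 3. TRIM28, a corepressor also found with 7SK at promoters, had a log2 difference of -0.31 (limma, adjusted p = 0.101).

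Of 8 tested subunits of the super elongation complex, the assembly that carries active P-TEFb to genes, none passed the adjusted threshold. At an unadjusted p under 0.05 (limma) 3 were lower, where 23.6% of all tested genes passed in either direction. AFF1, a scaffold of the complex, was at 2.57, 5.95 and 2.37 FPKM in the shNC samples and at 1.16, 1.09 and 1.41 in the shPQBP1 samples (log2 difference -1.38, limma, adjusted p = 0.0963). EAF1, which binds the ELL elongation factors, was at 14.67, 13.33 and 14.22 FPKM against 11.18, 11.82 and 11.08 (log2 difference -0.31, limma, adjusted p = 0.0924). Both had groups without overlap, and after the GC and length correction both were lower at an adjusted p under 0.05 (0.0498 for AFF1 and 0.0418 for EAF1, from limma). That correction called 3.28% of 11385 genes lower. In the fit without it, leaving out 1 sample gave adjusted p from limma of 0.0792 to 0.258 for AFF1 and 0.089 to 0.278 for EAF1.

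Of 21 tested pausing and elongation factors, the substrates and partners of P-TEFb, none passed the adjusted threshold. At an unadjusted p under 0.05 (limma) 1 was higher and 5 were lower, where 23.6% of all tested genes passed in either direction. Both subunits of DSIF gave lower values in the knockdown. SUPT4H1 was at 39.05, 33.35 and 26.35 FPKM in the shNC samples and at 23.02, 22.67 and 22.81 in the shPQBP1 samples (log2 difference -0.51, limma, adjusted p = 0.118), and SUPT5H was at 21.56, 17.21 and 19.14 FPKM against 15.34, 16.67 and 14.62 (log2 difference -0.31, limma, adjusted p = 0.165). Among the subunits of NELF, which holds paused polymerase, NELFA (log2 difference -0.40, limma, adjusted p = 0.183) had groups without overlap and NELFB, NELFCD and NELFE did not. SSRP1, a histone chaperone subunit, had a log2 difference of -0.24 (limma, adjusted p = 0.134). Other genes of the list went up. CDC73, the 1 higher at an unadjusted p under 0.05, was at 5.13, 5.0 and 5.62 FPKM against 7.07, 6.14 and 9.17 (log2 difference 0.48, limma, adjusted p = 0.143). SUPT16H had a log2 difference of 0.25 (limma, adjusted p = 0.272). Without overlap, 4 of the 21 were higher and 5 lower, where 34.4% of all tested genes did not overlap in either direction. SUPT5H, NELFA, NELFB, NELFCD, NELFE, CDC73 and SUPT16H were picked here after their values were seen.

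Of 13 tested subunits of other transcription kinases, none passed the adjusted threshold, and CDK11B (log2 difference -0.27, limma, adjusted p = 0.0978) and CCNK, the cyclin of CDK12 and CDK13 (log2 difference -0.29, limma, adjusted p = 0.151), had the smallest p. Of 14 other tested 7SK-binding proteins, none passed either. SYNCRIP, an RNA-binding protein, had a log2 difference of 0.29 (limma, adjusted p = 0.274).

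The factors that make 7SK showed no call. Of 22 tested genes for RNA polymerase III and for the factors at the 7SK promoter, none passed the adjusted threshold. At an unadjusted p under 0.05 (limma) 1 was higher and 3 were lower, where 23.6% of all tested genes passed in either direction. SNAPC4, the DNA-binding subunit of the SNAPc complex that starts small nuclear RNA genes, was at 6.35, 5.66 and 5.67 FPKM in the shNC samples and at 4.33, 4.51 and 4.0 in the shPQBP1 samples (log2 difference -0.45, limma, adjusted p = 0.0597). SNAPC1, another subunit of SNAPc, went the other way, at 50.64, 68.70 and 68.33 FPKM against 96.41, 79.69 and 81.12 (log2 difference 0.46, limma, adjusted p = 0.138). Both had groups without overlap.

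The factors that trim and degrade nuclear RNA showed no call either. Of 24 tested genes, none passed the adjusted threshold. At an unadjusted p under 0.05 (limma) 3 were higher and 2 were lower, where 23.6% of all tested genes passed in either direction. TENT4B, a nuclear polymerase that adds short A tails, was at 1.01, 1.16 and 1.21 FPKM in the shNC samples and at 3.28, 1.95 and 1.62 in the shPQBP1 samples (log2 difference 0.90, limma, adjusted p = 0.123). PARN, a nuclease that removes A tails, was at 2.94, 3.55 and 3.21 FPKM against 4.30, 4.04 and 4.08 (log2 difference 0.35, limma, adjusted p = 0.118). Both were higher in every knockdown sample, and neither difference passed the threshold.

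Of 19 tested early response genes, which are classic genes under pause control, 1 was lower at an adjusted p under 0.05 (limma) and none higher. Over all tested genes 1.18% were lower at this threshold. ATF3, a stress-induced transcription factor, fell from 5.79, 5.67 and 6.06 FPKM in the shNC samples to 4.38, 3.86 and 3.82 in the shPQBP1 samples (log2 difference -0.53, limma, adjusted p = 0.0384), and this call was lost with any of the 6 samples left out (adjusted p between 0.0504 and 0.167) and after the GC and length correction (0.06). JUN, another early transcription factor, was at 102.39, 90.38 and 94.47 FPKM against 128.33, 136.27 and 118.99 (log2 difference 0.42, limma, adjusted p = 0.0557), and after the correction 5 of the 19 genes were higher at an adjusted p under 0.05, JUN among them (0.00844), and none lower, where the correction called 4.96% of 11385 genes higher and 3.28% lower. MYC and IER2 were uneven within groups and are named here after their values were seen. MYC was at 32.12, 1.31 and 1.46 FPKM in the shNC samples and at 13.95, 1.81 and 1.28 in the shPQBP1 samples, and IER2 was at 23.07, 17.79 and 18.93 FPKM against 1.04, 27.82 and 1.88.

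Long non-coding RNAs and replication-dependent histone genes were listed for comparison. Of 4 tested long non-coding RNAs none passed at either threshold by limma, with GAS5 at 23.4 ± 1.02 against 24.9 ± 1.84 FPKM and MALAT1 at 9.87 ± 4.67 against 12.2 ± 3.91 (SD, n = 3 each). Of 26 tested replication-dependent histone genes, whose messenger RNAs normally end without a poly(A) tail, 3 were higher and none lower at an adjusted p under 0.05 (limma), and the median log2 difference was 0.19, where 2.91% of all tested genes passed in either direction and 1.73% were higher. After the GC and length correction 6 of 24 were higher, against 4.96% of all genes, none was lower, and the median was 0.46. HIST1H2BD rose from 13.5 ± 0.456 to 20.4 ± 0.205 FPKM (limma, adjusted p = 0.017), HIST1H2AC from 24.2 ± 2.81 to 35.6 ± 1.29 (0.0477) and HIST1H1C from 50.5 ± 6.74 to 79.6 ± 7.81 (0.0499), all SD with n = 3 each. With 1 sample left out, HIST1H2BD kept the call only without shNC sample 1 (0.0165) and reached 0.1 without shPQBP1 sample 3, HIST1H1C kept it only without shNC sample 1 (0.0242) and reached 0.162 without shPQBP1 sample 1, and HIST1H2AC lost it each time (0.0604 to 0.178).

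**Figure D5:**
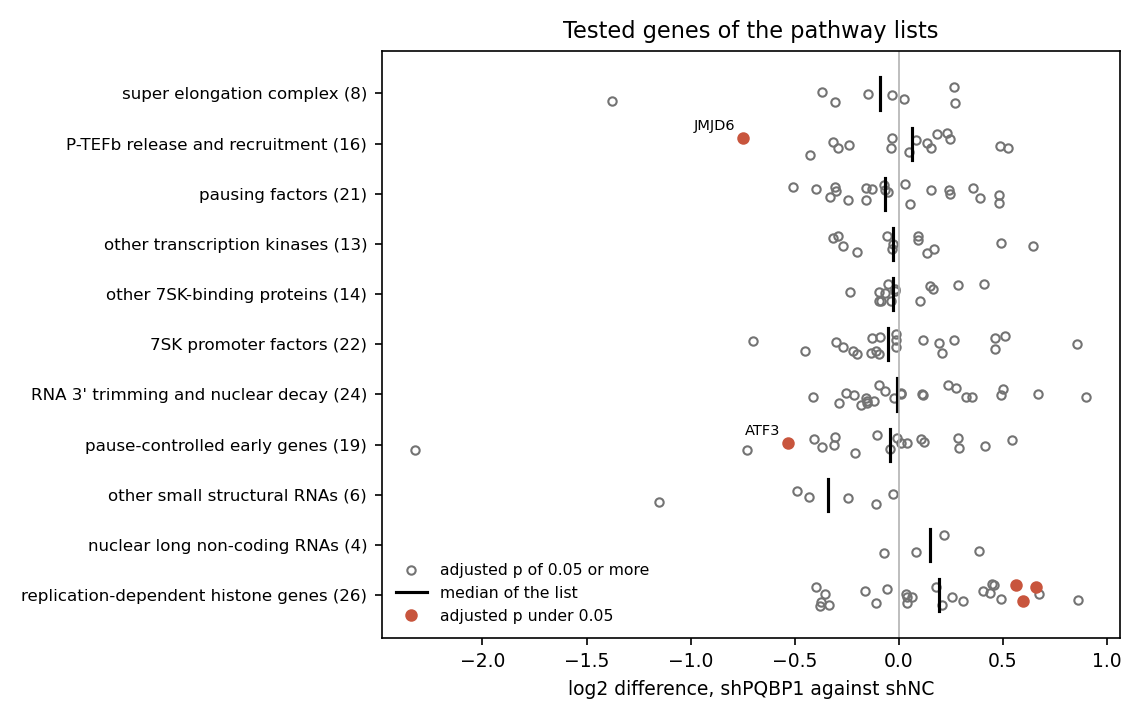
log2 difference, shPQBP1 against shNC, of every tested gene of the 8 pathway lists and of 3 lists of other RNAs, with the number tested in parentheses. Filled points passed an adjusted p under 0.05 (limma), open points did not, and the bar is the median of the list. JMJD6 and ATF3 are the filled points of the pathway lists, both below 0, and the histone genes hold 3 filled points above 0.

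The knockdown and the cells were checked in the same table. PQBP1 was at 7.18, 6.67 and 6.93 FPKM in the shNC samples and at 1.68, 1.72 and 1.44 in the shPQBP1 samples, a log2 difference of -2.04 (limma, adjusted p = 0.00154, standard error 0.10), so the labels and the targeted gene went together. The epithelial keratins KRT7, KRT8 and KRT18 and the ovarian marker genes PAX8 and MSLN were all above 10 FPKM in every sample, and so were VIM and CDH2, which mark mesenchymal cells, while CDH1, MUC16 and WFDC2 were at or below 0.08 FPKM. EPCAM (0.79 to 1.13), WT1 (0.31 to 0.71), KRT19 (1.19 to 2.1) and SOX17 (0.88 to 1.85) were low, as were the mesenchymal collagens COL1A1 (0.19 to 0.47) and COL1A2 (0 to 0.07), and ZEB1 was at 2.94 to 9.76 FPKM. PTPRC, which marks blood cells, was at 0 in all samples, and the other blood and endothelial markers in the table were under 1 FPKM except CD68 (9.12 to 21.16) and CDH5 (2.11 to 3.64). Some markers too low to be tested were lower in the knockdown without overlap. WT1 was at 0.63, 0.71 and 0.68 FPKM against 0.31, 0.34 and 0.45, and COL1A1 at 0.30, 0.36 and 0.47 against 0.19, 0.22 and 0.26. PECAM1 was at 0.24, 0.23 and 0.25 FPKM against 0.02, 0.03 and 0.06. Of the tested markers without overlap, 4 epithelial and 3 mesenchymal genes were higher and 0 lower. Over all tested genes 34.4% had groups without overlap, 1978 of them higher and 1950 lower. Among the markers, 1 of 7 tested epithelial genes, MSLN (13.5 ± 1.32 to 23.8 ± 1.52 FPKM), and 1 of 4 tested mesenchymal genes, FN1 (43.4 ± 1.06 to 143.9 ± 14.5 FPKM, SD, n = 3 each), rose at an adjusted p under 0.05 (limma), where 1.73% of all tested genes did. The MSLN call held without shNC sample 1 (0.0198) and was lost with any other sample left out (0.0601 to 0.0935), and FN1 kept its call each time (0.00731 to 0.0226). After the GC and length correction 5 of the 7 epithelial and 2 of the 4 mesenchymal genes were higher, against 4.96% of all genes. The part of these markers in the results was not tested. Pearson's correlation of log2 values across genes with each other sample was lowest for shNC sample 1, 0.926 to 0.955. The number of reads behind a value is unknown, since the table holds FPKM values whose low values showed no steps of whole reads.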

How the data were processed

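Gene expression was measured by RNA-seq in 6 samples, 3 shNC and 3 shPQBP1. Per the labels and the methods, the tools of the authors were HISAT2 2.2.0 for mapping to hg38, SAMtools 1.9 for sorting, StringTie 1.3.0 for building transcripts and edgeR for their own comparison. The deposited FPKM values were made by the authors for each gene in each sample, with 2 decimals. Annotation release and FPKM settings are not given in the sources used here. The authors' columns of fold change, log2 fold change, p-value, q-value, direction and significance were not used. FPKM allows no count model, so edgeR was not run. FPKM times length over the single-exon genes of each sample showed no steps of whole reads (strength 0.231 to 0.273, where 1 is a perfect comb), so the depth per sample is unknown and precision rests on the spread between samples.

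Genes whose mean reached 1 FPKM (11413) were tested on log2(FPKM + 0.1) in limma 3.58.1 under R 4.3.3. The moderated test was two-sided and used a trend of variance on mean (lmFit, eBayes), and p-values were adjusted by Benjamini-Hochberg over all of these genes. Intervals are from the same fit. For single members an exact permutation test over the 20 labellings was added. The members, gene lists and ratios were chosen with earlier results of these data known. Named genes were the members, PQBP1, list genes at an adjusted p under 0.05 and at least 2 per list by smallest p, the highest small RNAs and copies, overlapping genes and the genes most like RN7SK; genes named outside this rule are marked as such or belong to the marker lists.

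Alternatives were median-of-ratios scaling, quantile normalization, every gene above 0, genes whose mean reached 10 FPKM, 1 or 0.01 as the pseudocount, a fit with no trend, a block for the sample number, the omission of each sample, and removal of each sample's trend on GC content and log transcript length (GENCODE 44 transcripts of 11385 genes, natural splines with 5 degrees of freedom each). RN7SK was aligned to hg38 with blastn (version 2.17.0). Scripts ran in Python 3.11.15 with scipy 1.17.1. The limma fit and the search for steps were tested on simulated data. Protein sequences were not used here. Some genes that the rule would name are not reported here.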

Additional observations from a re-analysis of the deposited data

How the results depend on the processing

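Of 106 values of the 8 genes recomputed under the alternatives, 98 kept their direction and side of the threshold or, for RN7SK and HEXIM2, moved by less than 1 SD. RN7SK was -2.23 with a pseudocount of 1. The sign turned for MEPCE under quantile normalization (-0.013) and without 1 sample (-0.081 without the third shNC sample, -0.008 and -0.04 without the first or second shPQBP1 sample, otherwise up to 0.108), for CCNT1 after the GC and length correction (-0.099) and without shNC sample 1 (-0.012, the lowest of a range up to 0.18), and for LARP7 without shNC sample 1 (-0.026, the lowest of a range up to 0.483). None of the tested proteins passed the adjusted threshold in any of these settings, and the cause of the turned signs was not tested.

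Over all genes tested, the 332 calls at an adjusted p under 0.05 (limma) became 190 with every gene above 0 tested, 211 at a mean FPKM of at least 10, 938 after the GC and length correction and from 30 (shPQBP1 sample 3) to 466 (shNC sample 1) upon leaving out 1 sample. The 173 genes that differed over 2-fold at an unadjusted p under 0.05 became 662, 40 and, with a pseudocount of 1, 83, and between 143 and 314 with 1 sample left out. The 1 member at an unadjusted p under 0.05, CCNT2, was joined by HEXIM1 (2 in all) without shNC sample 2. It was not called without shPQBP1 sample 1 (0) or under the block (0), and at a mean FPKM of at least 10 it was not tested (0 called). After the GC and length correction CDK9 was called in its place.

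The replicate numbers gave no sign of pairing the samples: deviations of same-numbered samples from their group means correlated at -0.186, -0.138 and -0.011. Deviations from a group mean depend on each other, so this check cannot show that the samples were unpaired. With the number as a replicate block, limma called 0 genes at an adjusted p under 0.05 and 1840 at an unadjusted p under 0.05.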

Other observations

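The genes whose values ran most like those of RN7SK were found by Pearson's correlation of log2(FPKM + 0.1) over the 6 samples among all tested genes, a description in which the difference between the groups itself makes most of the likeness. They were IL23A (r = 0.997), HMGXB3 (0.996), IL20RB (0.995), CNOT3 (0.995) and CHCHD3 (0.994), over n = 6 samples. IL23A, a cytokine subunit, was at 1.76, 1.28 and 1.48 FPKM in the shNC samples and at 0.44, 0.67 and 0.45 in the shPQBP1 samples (log2 difference -1.38). IL20RB, a cytokine receptor subunit, was at 3.93, 3.26 and 3.39 FPKM against 1.59, 2.03 and 1.54 (log2 difference -1.0). Over deviations from the group means, which leave the difference between the groups out, the most alike were WDR20 (r = 0.999), LAMB2 (0.998), SGSM3 (0.998), HMGXB3 (0.994) and IKBKE (0.994). Both lists are the extremes of 11413 genes over 6 samples, so values this high carry no weight by themselves. HMGXB3, which stood on both lists, was at 13.89, 12.60 and 13.16 FPKM in the shNC samples and at 7.99, 10.16 and 8.61 in the shPQBP1 samples (log2 difference -0.57).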
